A study of Homo sapiens with 6 samples.

Results

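Heat shock proteins and cytosolic chaperones were examined in TC28a2 cells, an immortalised line of human chondrocytes, the cells of cartilage. The set held 35 genes, taken by symbol from the 28395 rows of the deposited table through their Entrez identifiers, and all 35 had a row and passed the filter on low counts. Cells had been transfected with a control vector (3 libraries) or an FAP overexpression vector (3 libraries), and RNA was taken 48 hours later for DRUG-seq, a multiplexed form of RNA sequencing. FAP is a membrane serine protease known from activated fibroblasts. All 6 libraries came from the same line, and all cultures had been transfected. The sources used here do not give the promoter of the vector, the share of cells that took it up or whether replicates were separate cultures. The p-values therefore measure only how far these libraries differ among themselves, which may be technical.

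Chaperones bind unfolded or partly folded proteins and keep them from aggregating. HSP70 proteins do so in cycles of ATP hydrolysis that J proteins start and that BAG and HSP110 proteins end by releasing the nucleotide. HSP90 finishes the folding of kinases and steroid receptors together with cochaperones, and the ring-shaped TRiC complex folds actin and tubulin. Heat shock factors, chiefly HSF1, raise the transcription of many of these genes when unfolded protein accumulates, through heat shock elements in their promoters.

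The promoters of several members held such elements, and those of the genes on which the results turn are shown here. An element of 2 units was searched as GAANNTTC or TTCNNGAA, and an element of 3 units as GAANNTTCNNGAA, on both strands and with overlaps counted. RefSeq promoter windows of 300 bases (250 before and 50 after a start, GRCh38.p14) were matched for 32 of the 35 members. FKBP4, CCT6A and HSF1 were not matched. Of these 32 genes, 20 (62.5%) had an element of 2 units in at least 1 window, against 16.2% of all 27305 genes with a window, and 7 (21.9%) had one of 3 units, against 0.608%. A match describes the letters only. A gene can have more than 1 window, and each stretch printed lies upstream of the start of its own window. Those of DNAJB1, HSPA8, HSP90AA1, HSP90AB1 and HSPD1 lie within the annotated span of the gene. For HSP90AA1, HSP90AB1 and HSPD1 the window at the outermost annotated start held no element of 2 units. Capitals mark the elements that lie wholly inside each stretch, and the stretches are given 5′ to 3′ on the strand of their gene. They lie at chr6:31815417-31815464 (HSPA1A, plus strand), chr6:31827613-31827660 (HSPA1B, plus), chr12:119178823-119178870 (HSPB8, plus), chr19:14518417-14518494 (DNAJB1, minus), chr11:123062159-123062206 (HSPA8, minus), chr14:102087085-102087152 (HSP90AA1, minus), chr6:44247758-44247863 (HSP90AB1, plus) and chr2:197500048-197500090 (HSPD1, minus).
HSPA1A: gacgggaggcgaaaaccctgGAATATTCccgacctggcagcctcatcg
HSPA1B: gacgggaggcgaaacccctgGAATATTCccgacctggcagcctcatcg
HSPB8: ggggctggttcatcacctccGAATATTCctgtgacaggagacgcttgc
DNAJB1: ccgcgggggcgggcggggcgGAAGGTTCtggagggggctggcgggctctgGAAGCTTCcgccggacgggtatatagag
HSPA8: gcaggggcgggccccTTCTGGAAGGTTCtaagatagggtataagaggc
HSP90AA1: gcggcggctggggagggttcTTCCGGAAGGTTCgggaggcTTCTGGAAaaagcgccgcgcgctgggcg
HSP90AB1: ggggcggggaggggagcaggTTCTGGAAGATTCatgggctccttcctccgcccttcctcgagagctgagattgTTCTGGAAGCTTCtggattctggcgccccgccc
HSPD1: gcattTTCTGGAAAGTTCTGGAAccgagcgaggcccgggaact

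The stretches of HSPA1A and HSPA1B differ at 1 of 48 bases, A15C, counted from 1 at the 5′ end of the stretch with the HSPA1A base first. No window of CCT8 or HSF2 held an element of 2 units.

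Counts per library ran from 5736056 to 13839743. Levels below are CPM, counts relative to the library size after TMM, a scaling between libraries, and are given in the order of replicates 1, 2 and 3. Fold changes are FAP vector minus control vector on the log2 scale. FAP was at 0, 1.20 and 0.396 CPM with the control vector and at 223, 225 and 351 CPM with the FAP vector, so the libraries matched their labels. FAP replicate 3 stood apart from the other FAP libraries by chi-square per degree of freedom. The value was 17.6 and 17.0 to replicates 1 and 2, against 6.08 between those. Spearman correlations of log CPM were 0.9824 and 0.9895 to replicates 1 and 2, against 0.9890 between those. Of 16 cartilage markers SOX9 alone passed the filter, the other 15 being at no more than 1.64 CPM in any library. All 13 mesenchymal markers passed, though DCN and LUM reached only 1.60 and 2.06 CPM in their highest library.

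No chaperone gene passed the test between the vectors. With edgeR's quasi-likelihood test 0 of the 35 genes had an adjusted p under 0.05, against 30 of all 13373 tested genes (0.224%). DESeq2 and limma-voom also called 0. At an unadjusted p under 0.05 stood 4 of the 35 (11.4%), beside 9.91% of all tested genes. These were HSPA1B, higher (1 of 35, beside 4.61% of all tested genes), and HSPB8, CCT8 and DNAJB1, lower (3 of 35, beside 5.30%), and DESeq2 and limma-voom gave the same 4. The median log2 fold change of the 35 was -0.02, beside 0.00 for all tested genes. Negative values numbered 20 of 35 (57.1%, beside 49.3% of all tested genes). When libraries were scaled by their totals alone they numbered 16 of 35 (45.7%, beside 39.2%). The FAP libraries lay wholly above the controls for 3 members (beside 7.96% of all tested genes) and wholly below for 4 (beside 7.99%), together 7 of 35 against 16.0%. In bulk RNA fewer cells that express a gene and less of its RNA per cell cannot be told apart. The members took 2.36%, 2.31% and 2.23% of all counts in the control libraries and 2.11%, 2.34% and 2.44% in the FAP libraries, groups that overlap.

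**Figure D1:**
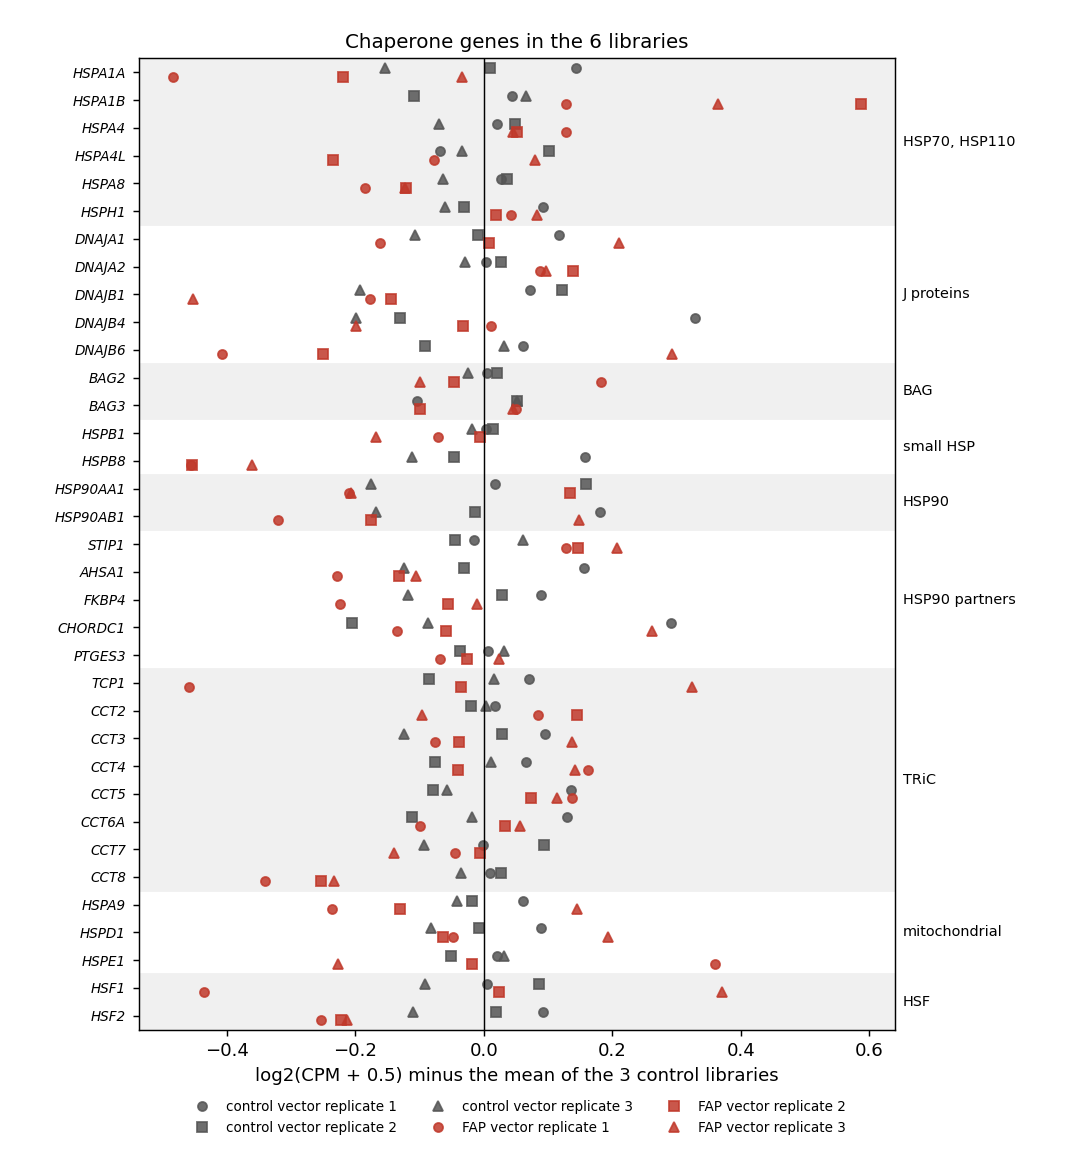
Level of each of the 35 chaperone genes in the 6 libraries, as log2(CPM + 0.5) minus the mean of the 3 control libraries (horizontal axis), with genes grouped by role. Grey symbols are control vector and red symbols FAP vector libraries, circles, squares and triangles being replicates 1, 2 and 3; for most genes the groups overlap, and HSPA1B, HSPB8 and CCT8 are among the 7 for which they do not.

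Half-widths of the 95% interval of the log2 fold change ran from 0.19 to 0.37 over the members. Like the p-values, these intervals rest only on the spread among these libraries, and they were taken gene by gene. The 95% interval of the log2 fold change included 0 in 31 of 35 genes. It lay wholly between -0.5 and 0.5 in 33 of 35, the exceptions being HSPA1B and HSPB8. In simulated libraries of this depth the test recovered 8% of genes changed 1.25-fold, 78% of those changed 1.5-fold and 100% of those changed 2-fold. The simulated spread depended on level alone, and no simulated library stood apart as FAP replicate 3 did. The simulation also gave 149 calls, against 30 in the data, so recovery in the data may be lower. The fitted change was under 1.25-fold for 33 of the 35 members, a size the test mostly missed, so values short of the threshold do not show equal levels.

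**Figure D2:**
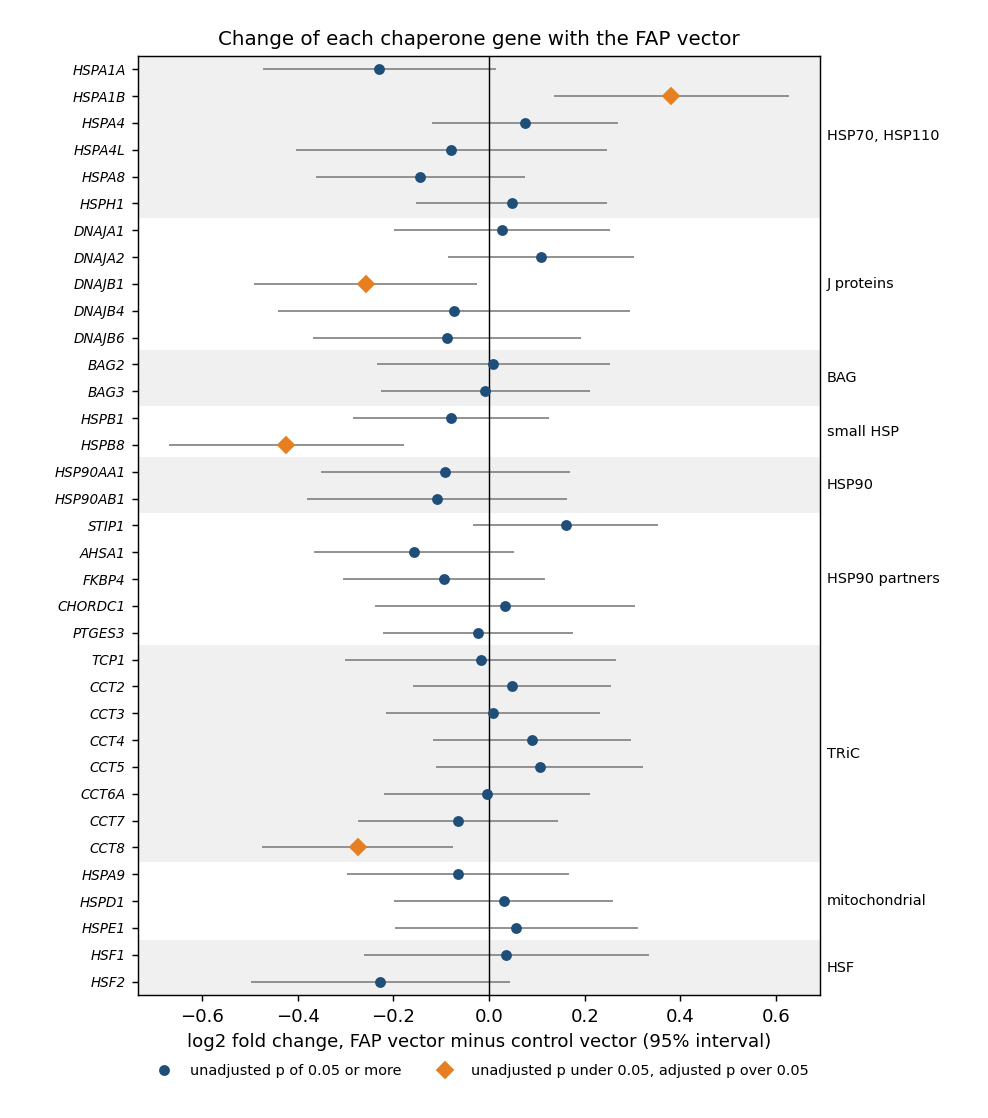
Log2 fold change of each chaperone gene, FAP vector minus control vector (horizontal axis), with its 95% interval from edgeR's quasi-likelihood fit (bars). Orange diamonds mark the 4 genes with an unadjusted p under 0.05, HSPA1B on the right and HSPB8, CCT8 and DNAJB1 on the left, and none of these passed after adjustment over all genes.

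The stress-inducible HSP70 genes HSPA1A and HSPA1B, a pair of neighbouring copies, had fold changes of opposite sign. HSPA1B (chromosome 6, 31827738 to 31830254) was at 61.6, 55.3 and 62.4 CPM in controls and at 65.3, 89.9 and 77.0 CPM in FAP libraries. All FAP libraries were above all controls, and the log2 fold change was 0.38 (SE 0.12, unadjusted p = 0.0041, adjusted p = 0.266). Leaving out FAP replicate 2 gave 0.26 (adjusted p = 0.639), and leaving out FAP replicate 1 gave 0.49 (adjusted p = 0.0811). HSPA1A (chromosome 6, 31815543 to 31817942) was at 121, 110.3 and 98.5 CPM in controls and at 78.2, 94.0 and 107 CPM in FAP libraries. Here the groups overlapped, FAP replicate 3 lying above control replicate 3, with a log2 fold change of -0.23 (SE 0.12, adjusted p = 0.531). Leaving out FAP replicate 1 made it -0.12 (adjusted p = 0.761), and leaving out FAP replicate 3 made it -0.34 (adjusted p = 0.105).

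The difference in their sum was smaller than the spread between libraries. The joint level was 169.7 ± 11.4 CPM with the control vector and 170.5 ± 23.4 CPM with the FAP vector (SD, n = 3 each), and the summed counts had a log2 fold change of 0.01 (95% interval -0.21 to 0.24, edgeR adjusted p = 0.982). The make-up of the pair differed more than its sum. HSPA1B gave 33.7%, 33.4% and 38.8% of the pair's counts in controls and 45.5%, 48.9% and 41.8% in FAP libraries. This share, a measure chosen after the values of both genes were seen, needs no scaling between libraries. It was higher in all 3 FAP libraries than in any control, with means of 35.3% ± 3.05 and 45.4% ± 3.52 (SD, n = 3 each, two-sided exact permutation p = 0.1, the smallest that 3 against 3 libraries can give). The highest control and the lowest FAP share rested on 2033 and 2483 counts, and their exact (Clopper-Pearson) 95% intervals, 36.7 to 41.0% and 39.9 to 43.8%, overlap. Such intervals treat reads as independent and leave out variation between libraries. They are too narrow if amplification copies were counted as separate reads.

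The 2 genes share much of their sequence. Of all 50-base words in the longest GENCODE coding transcript of HSPA1A, 72.6% also occur in that of HSPA1B, but in the last 300 bases 0% do. The sources used here do not say how reads that fit both copies were counted, so their split is uncertain wherever reads fell outside the 3′ end.

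**Figure D3:**
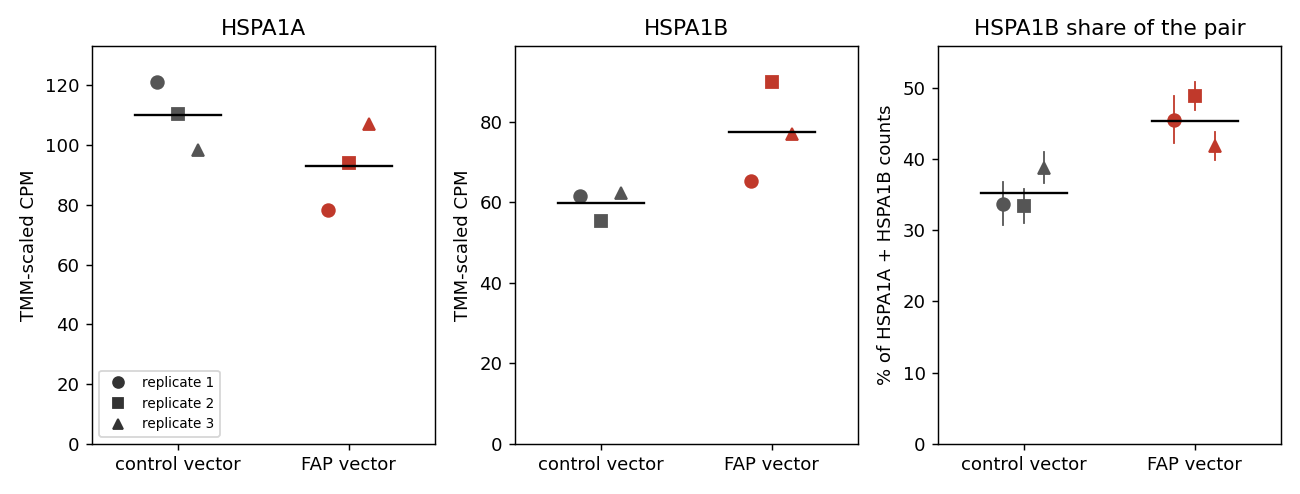
TMM-scaled CPM of HSPA1A (left) and HSPA1B (middle) and the share of HSPA1B in the counts of both genes (right, %, with exact 95% binomial intervals) by vector group. Symbols are libraries (circle, square and triangle for replicates 1, 2 and 3) and bars are group means; HSPA1B and its share are higher in every FAP library than in any control, while HSPA1A overlaps.

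The constitutive members of the HSP70 system did not pass either. HSPA8, the cognate HSP70 of unstressed cells, was at 2751, 2767 and 2585 CPM in controls and at 2374, 2483 and 2478 CPM in FAP libraries. All FAP libraries lay below all controls, by a log2 fold change of -0.14 (SE 0.10, adjusted p = 0.680). The HSP110 family members HSPA4, HSPA4L and HSPH1, which exchange the nucleotide of HSP70, had log2 fold changes of 0.07, -0.08 and 0.05. Their FAP and control libraries overlapped. Summed over the HSP70 and HSP110 genes, the libraries held 3647, 3620 and 3400 CPM with the control vector and 3238, 3364 and 3380 CPM with the FAP vector, without overlap. HSPA8 made up most of this sum in each library, and the sum was not tested.

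Among J proteins, which present clients to HSP70, DNAJB1 had the smallest p. DNAJB1, a stress-inducible partner of HSP70 (chromosome 19, 14514769 to 14560391), was at 151, 156 and 125 CPM in controls and at 127, 130 and 105 CPM in FAP libraries. FAP replicates 1 and 2 lay just above control replicate 3, so the groups overlapped, and the log2 fold change was -0.26 (SE 0.11, unadjusted p = 0.0310, adjusted p = 0.445). It was -0.16 without FAP replicate 3. Its annotated span overlaps TECR, which had 7394 counts over the 6 libraries beside 7880 for DNAJB1. Overlaps given here and below are of annotated spans, introns included, and shared exons were not sought. No strand setting is given, so reads of either gene may be counted at the other wherever exons overlap. DNAJA2 was at 140, 142 and 137 CPM in controls and at 148, 154 and 149 CPM in FAP libraries, with no overlap and a log2 fold change of 0.11 (adjusted p = 0.738). DNAJA1, DNAJB4 and DNAJB6 had 0.03, -0.07 and -0.09, and the sign of each turned when certain libraries were left out. DNAJB6 reached -0.33 without FAP replicate 3 (adjusted p = 0.0686) and 0.05 without FAP replicate 1. Over 16 alternative settings DNAJB4 ran from -0.18 to 0.09 and DNAJA1 from -0.07 to 0.11. DNAJB4 overlaps FUBP1 by 327 bases, and FUBP1 had 7962 counts beside its 864.

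Both BAG cochaperones had log2 fold changes near 0. BAG3, which links HSP70 to small heat shock proteins and to autophagy, was at 60.6, 67.6 and 67.6 CPM in controls and at 67.5, 60.8 and 67.3 CPM in FAP libraries. BAG2, an inhibitor of the ubiquitin ligase CHIP, was at 41.3, 41.7 and 40.4 CPM in controls and at 46.8, 39.8 and 38.4 CPM in FAP libraries. Both pairs of groups overlapped, with log2 fold changes of -0.01 for BAG3 and 0.01 for BAG2. BAG2 overlaps RAB23 by 2842 bases, and RAB23 had 1248 counts beside its 2494.

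The small heat shock proteins hold unfolded clients without using ATP, and HSPB8 had the smallest p of all 35 genes. HSPB8, a partner of BAG3 (chromosome 12, 119178931 to 119194746), was at 51.3, 44.5 and 42.5 CPM in controls and at 33.4, 33.4 and 35.6 CPM in FAP libraries. All FAP libraries were below all controls, and the log2 fold change was -0.42 (SE 0.12, unadjusted p = 0.0017, adjusted p = 0.192). Over 16 alternative settings it ranged from -0.48 to -0.35, with adjusted p-values from 0.0505 (without FAP replicate 3) to 0.621. HSPB1, the abundant HSP27, was at 604, 609 and 596 CPM in controls and at 574, 601 and 537 CPM in FAP libraries. Its groups overlapped, FAP replicate 2 lying above control replicate 3, and the log2 fold change was -0.08 (adjusted p = 0.827). The sum of both genes was 656, 654 and 638 CPM in controls and 608, 634 and 572 CPM in FAP libraries, without overlap and not tested. Sums over each of the other 7 roles, HSP70 and HSP110 aside, overlapped between the groups.

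The cytosolic HSP90 genes were among the members that varied within both groups. HSP90AA1, the inducible form, was at 4386, 4842 and 3837 CPM in controls and at 3747, 4759 and 3757 CPM in FAP libraries. HSP90AB1, the constitutive form, was at 5135, 4483 and 4032 CPM in controls and at 3627, 4009.7 and 5015 CPM in FAP libraries. Groups overlapped for both genes, and the log2 fold changes were -0.09 (SE 0.12) and -0.11 (SE 0.13), with adjusted p-values of 0.848 and 0.822. That of HSP90AA1 was -0.22 without FAP replicate 2 (adjusted p = 0.728) and -0.00 without control replicate 2. Without FAP replicate 3 that of HSP90AB1 was -0.25 (adjusted p = 0.306).

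Of the HSP90 cochaperones, STIP1 (HOP, which joins HSP70 to HSP90) had the smallest p. It was at 220, 216 and 233 CPM in controls and at 244, 247 and 257 CPM in FAP libraries, with no overlap and a log2 fold change of 0.16 (SE 0.09, adjusted p = 0.584). AHSA1, an activator of the HSP90 ATPase, had -0.16, the steroid receptor partner FKBP4 -0.09, CHORDC1 0.03 and PTGES3 (p23) -0.02. Groups of these 4 overlapped.

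The 8 subunits of TRiC did not share a direction. CCT8 (chromosome 21, 29056326 to 29073648) was at 520, 526 and 503 CPM in controls and at 407, 433 and 439 CPM in FAP libraries. All FAP libraries were below all controls, and the log2 fold change was -0.28 (SE 0.10, unadjusted p = 0.0094, adjusted p = 0.335, and 0.0523 with DESeq2). The other 7 subunits ran from -0.06 for CCT7 to 0.11 for CCT5, with overlapping groups. Summed over all 8, the control libraries held 4761 ± 225 CPM and the FAP libraries 4754 ± 134 CPM (SD, n = 3 each).

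The mitochondrial chaperones fold imported proteins in the matrix, and HSPD1 (HSP60) and HSPE1 (HSP10) form its chaperonin from head-to-head genes on chromosome 2. The annotated starts of these genes lie at 197500274 (HSPD1, minus strand) and 197500379 (HSPE1, plus strand). HSPD1 was at 1664, 1555 and 1478 CPM in controls and at 1513, 1497 and 1788 CPM in FAP libraries. HSPE1 was at 438, 417 and 441 CPM in controls and at 555, 426 and 369 CPM in FAP libraries. The FAP library with the highest HSPD1 value, replicate 3, thus had the lowest HSPE1 value. HSPA9 (mortalin, the mitochondrial HSP70) was at 942, 891 and 877 CPM in controls and at 766, 824 and 998 CPM in FAP libraries. Groups of all 3 genes overlapped. Log2 fold changes were 0.03 for HSPD1, 0.06 for HSPE1 and -0.06 for HSPA9, with adjusted p-values of at least 0.885.

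Neither heat shock factor passed the test. HSF1, the main activator of the heat shock response, was at 74.7, 79.1 and 69.9 CPM in controls and at 54.9, 75.7 and 96.4 CPM in FAP libraries. The FAP libraries lay on both sides of the controls, with a log2 fold change of 0.04 (SE 0.14, adjusted p = 0.957). Leaving out FAP replicate 3 gave -0.17, and leaving out FAP replicate 1 gave 0.21. HSF1 overlaps DGAT1 by 137 bases, and DGAT1 had 947 counts beside its 4734. HSF2 was at 28.3, 26.9 and 24.5 CPM in controls and at 22.2, 22.7 and 22.8 CPM in FAP libraries. All FAP libraries were below all controls, with a log2 fold change of -0.23 (SE 0.13, adjusted p = 0.579).

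Members with a heat shock element in a promoter window did not share a direction. The 7 genes with an element of 3 units, CHORDC1, DNAJA1, DNAJB6, HSP90AA1, HSP90AB1, HSPA8 and HSPD1, had log2 fold changes from -0.14 to 0.03, and 4 of them were negative. The 20 genes with an element of 2 units had a median of -0.07, with 12 negative, and ran from HSPB8 to HSPA1B, the lowest and highest of all members. The 12 matched genes without 1 had a median of 0.00, with 6 negative.

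Libraries of a group differed no more in these members than in all genes whose mean was 10 CPM or more. Those genes were not matched to the members in level, and most members lay far above that bound. The highest FAP library was at least 1.25 times the lowest for 12 of 35 members (34.3%), against 39.1% of all genes whose mean was 10 CPM or more, and the median ratio was 1.16 beside 1.21. For the control libraries this held for 4 members (11.4%), against 29.0% of those genes. The spread was larger in the FAP group for 19 members (54.3%, beside 56.2% of those genes) and in the control group for 16. The ratio was 1.76 for HSF1, 1.72 for the TRiC subunit TCP1, 1.63 for DNAJB6 and 1.50 for HSPE1, named after their values were seen. TCP1 was at 236, 212 and 228 CPM in controls and at 164, 220 and 282 CPM in FAP libraries. It overlaps ACAT2 by 615 bases, and ACAT2 had 1017 counts beside the 14054 of TCP1. DNAJB6, which suppresses aggregation of polyglutamine proteins, was at 362, 326 and 355 CPM in controls and at 262, 292 and 426 CPM in FAP libraries. In HSF1, TCP1 and DNAJB6 FAP replicate 3 was highest and FAP replicate 1 lowest, while HSPE1 had the reverse order. Of the FAP libraries replicate 3 held the highest value of 20 members (57.1%, beside 38.9% of the same genes), and replicate 1 the lowest of 21 (60.0%, beside 37.5%). The control libraries were as uneven. Control replicate 1 held the highest value of 19 members (54.3%, beside 38.6%), and control replicate 3 the lowest of 22 (62.9%, beside 35.9%). Without FAP replicate 3, 0 members passed, while edgeR called 248 of 13305 genes. In that fit 7 members had an unadjusted p under 0.05, beside 12.8% of all tested genes. The median log2 fold change of the members was then -0.06, beside -0.00 for all tested genes, with 25 of 35 negative beside 50.8%. Without control replicate 3, 25 of 35 were likewise negative (beside 49.7%), with a median of -0.03 and 5 members at an unadjusted p under 0.05 (beside 10.2%).

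**Figure D4:**
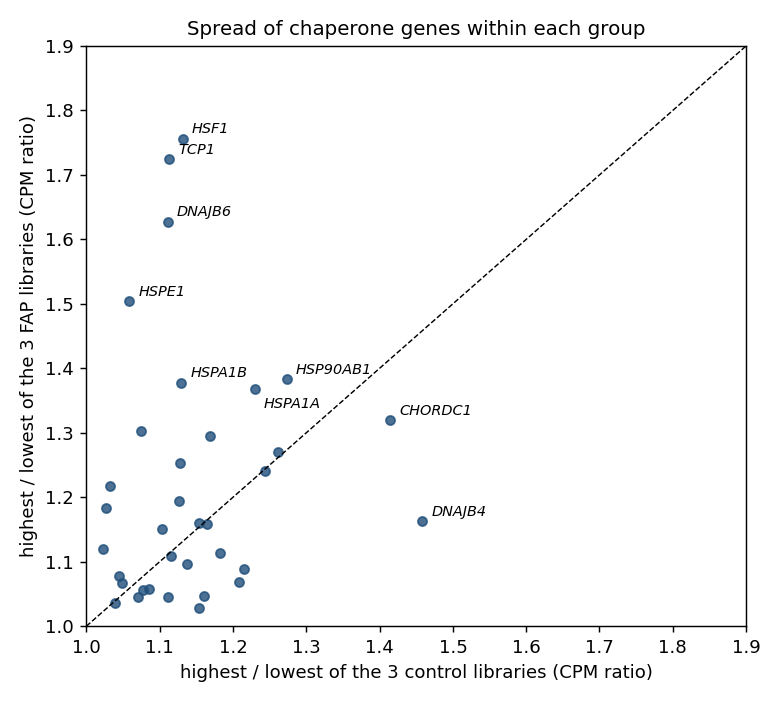
Ratio of the highest to the lowest CPM among the 3 control libraries (horizontal axis) and among the 3 FAP libraries (vertical axis) for each of the 35 chaperone genes (points), with a dashed line of equal spread. HSF1, TCP1, DNAJB6 and HSPE1 reach 1.50 to 1.76 in the FAP group, and DNAJB4 and CHORDC1 have the largest ratios in the control group.

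Chaperone genes beyond the 35 gave a like picture. Of 89 further genes of the network, 81 were tested with a median log2 fold change of -0.01, 0 passed with edgeR or limma-voom, and 5 (6.17%, beside 9.91% of all tested genes) had an unadjusted edgeR p under 0.05. DESeq2 called 2 of them, FKBP8 and SQSTM1. FKBP8, a membrane-bound immunophilin of mitochondria and an HSP90 partner, averaged 46.2 ± 5.75 CPM with the control vector and 67.5 ± 5.76 CPM with the FAP vector (SD, n = 3 each), with no overlap and a log2 fold change of 0.54 (edgeR adjusted p = 0.0646). SQSTM1 (p62, an autophagy receptor for aggregates) was at 536 ± 23.5 and 429 ± 32.6 CPM, with no overlap and -0.32 (edgeR adjusted p = 0.278). Without FAP replicate 3 edgeR called the same 2 genes. The tubulin cofactors TBCB and TBCA had -0.29 and -0.17, the mitochondrial disaggregase CLPB 0.20, and the HSP70 cochaperone BAG4 and HSPA13, an HSP70 of microsomes, 0.32 each. Of the other small heat shock proteins only HSPB11, a ciliary transport protein, passed the filter on low counts (-0.11), so CRYAB (alpha B crystallin) was too low to test. All 23 further J proteins tested had an unadjusted p over 0.05, and DNAJC19 and DNAJC14 had the smallest (log2 fold changes -0.16 and 0.33). PFDN2, a subunit of prefoldin, which hands actin and tubulin to TRiC, had -0.20, and the TRiC partner PDCL 0.27.

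The endoplasmic reticulum chaperones and the proteasome, the neighbouring parts of protein quality control, also had 0 genes called with edgeR in all 6 libraries. Of 14 endoplasmic reticulum chaperones HSPA5 (BiP) alone had an unadjusted p under 0.05 (7.14%, beside 9.91% of all tested genes). HSPA5 averaged 404 ± 33.2 CPM under the control vector and 489 ± 59.7 CPM under the FAP vector (log2 fold change 0.27, adjusted p = 0.405). The disulfide isomerase PDIA3 had 0.22. Of 32 proteasome subunits 4 (12.5%, beside 9.91% of all tested genes) had an unadjusted p under 0.05. The median log2 fold change of all 32 was -0.08, beside -0.02 for the 35 chaperone genes. Without FAP replicate 3 these medians were -0.01 and -0.06, in the opposite order. PSMD14 and PSMC3 were at -0.38 and -0.39 (adjusted p = 0.116 and 0.124), and DESeq2 called both. Without FAP replicate 3 edgeR called 1 proteasome subunit, PSMD3, at 0.47 (adjusted p = 0.0122). PSMD3 averaged 74.5 ± 4.76 CPM with the control vector and 93.7 ± 24.0 CPM with the FAP vector (SD, n = 3 each), with a log2 fold change of 0.32 over all libraries (adjusted p = 0.448). The difference between these lists was not tested.

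Many members have processed copies elsewhere in the genome, which bears on how their reads were counted. By symbol, RefSeq lists 28 copies of HSPE1, 22 of HSPD1 and 20 of HSPA8. Of all copies named after members, DNAJA1P5, HSP90AB4P and CHORDC1P4 had a row among those analysed here, with 0, 36 and 310 counts over the 6 libraries. The last came to 6.79% of the counts of CHORDC1.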

How the data were processed

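The authors deposited raw whole-number counts per gene. HISAT2, featureCounts, Subread and GRCh38 are named in the submitters' processing notes. The sources used here do not give the strand setting, the treatment of multiple alignments or the use of molecular identifiers. Entrez identifiers were matched to RefSeq (GRCh38.p14, 27745 of 28395 rows), and groups came from the labels. TMM scaling, filterByExpr (at least 10 counts, at least 15 in total) and a two-sided quasi-likelihood test without covariates were run in R 4.3.3 with edgeR 4.0.16, with Benjamini-Hochberg adjustment over 13373 genes and a threshold of 0.05. A standard error is the log2 fold change divided by the square root of F, and 95% intervals use the test's t quantile. Totals did not differ between groups beyond the spread (exact permutation p = 0.5, the smallest that 3 against 3 libraries can give being 0.1). Alternatives used DESeq2 1.42.0, limma 3.58.1 (voom), other scalings, filters and thresholds, the replicate number as a block, HSPA1A and HSPA1B summed, FAP left out, and each library left out. The test was tried on simulated data with 200 changed genes, 50 at each fold. Values in every library are given for members with an unadjusted p under 0.05, for the member with the smallest p in each role and for 12 members listed in the naming rule, and for DNAJA2, TCP1 and DNAJB6, chosen after their values were seen. In further lists the rule names called genes, otherwise up to 2 with the smallest p, and a gene this takes in is not reported here. Members and lists were chosen with earlier results of these data known.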

Additional observations from a re-analysis of the deposited data

How the results depend on the processing

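No member passed an adjusted p of 0.05, or of 0.1 where that threshold was tried, under any of the 16 alternatives. Under DESeq2 the smallest adjusted p among members was 0.0523 (CCT8), and without FAP replicate 3 it was 0.0505 (HSPB8). The median log2 fold change of the members lay between -0.06 and 0.04 over all settings, the highest value coming from library totals, where all tested genes had a median of 0.06. Leaving out single libraries gave medians from -0.06 to 0.01. HSPA1B, HSPB8, CCT8 and DNAJB1 kept their sign in each alternative that tested them. Over all genes 30 were called, and 97 with DESeq2, 19 with library totals and 152 with no low-count filter. Leaving out 1 library gave 3 (control replicate 3) to 248 (FAP replicate 3). The cause of these shifts was not tested. With the replicate block 44 genes and 0 members were called, and the FAP log2 fold change kept its call. Deviations of same-numbered libraries correlated at -0.0039, 0.0203 and -0.0041. These values show no marked effect shared by number, but cannot tell whether same-numbered libraries were prepared together.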
